A study of Mus musculus with 24 samples.

Results

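The transcripts described here are those of the receptors for glucocorticoids, Nr3c1 and Nr3c2, and of 5 genes that glucocorticoids are known to induce, Fkbp5, Sgk1, Tsc22d3, Zbtb16 and Hif3a. These 7 genes were chosen by symbol among the 49568 gene symbols of the count files, as a check of stress state between the housings, by a rule that uses no level but with earlier results of these data known. All 7 passed the filter on low counts, which left 18482 genes to test. Hippocampal RNA came from male mice of 12 weeks of age by the labels, on a C57-Bl/6J background and experimentally naive. The 4 groups were WT mice and mice homozygous for a kinase-dead MSK1 (MSK1 KD), and either genotype was reared with standard housing (SH) or with an enriched environment (EE), at 6 libraries a group. MSK1 is a nuclear kinase that phosphorylates transcription factors and histone H3, and the KD line carries a point mutation in the endogenous gene, in every cell, that inactivates the N-terminal kinase domain. Counts per gene do not show a point mutation, so the genotype was not checked here. The WT and KD mice were bred as separate lines, and EE mice lived from before birth in large cages with a running wheel, toys and more cage mates, while SH mice lived in small groups. The study's quality control excluded library 33B of WT EE and library 34B of KD EE, and the other 22 were compared, with 6 libraries in WT SH, 5 in WT EE, 6 in KD SH and 5 in KD EE.

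Corticosterone, the main glucocorticoid of mice, is released from the adrenal gland in a daily rhythm and in response to stress and physical activity. In the hippocampus it binds the mineralocorticoid receptor (MR, Nr3c2), which has the higher affinity and is largely occupied at rest, and the glucocorticoid receptor (GR, Nr3c1), which is occupied as the hormone rises. The bound receptors move to the nucleus and act on DNA elements near target genes, so that a rise in the hormone is followed within hours by more mRNA of genes such as Fkbp5, Sgk1 and Tsc22d3.

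The 22 libraries held between 8911999 and 56752074 counts on genes, and the members other than Hif3a had between 427 and 11671 counts in each library, while Hif3a had between 36 and 720. No pair of libraries of a group agreed within sampling noise, the closest pair having a chi-square of 5.27 per gene over 13639 genes. Neuronal markers, summed over 6 genes, were between 9002 and 10755 CPM (counts scaled by TMM to libraries of 1000000 counts) in every library, and the summed CA1 markers (4 genes) were between 515 and 748 CPM. Markers of the choroid plexus, the secretory tissue that projects into the ventricles, were uneven. Their sum over 12 genes was between 60.1 and 1903 CPM in WT SH, 61.0 and 5426 in WT EE, 40.2 and 2988 in KD SH and 217 and 5838 in KD EE. Thalamus markers, summed over 6 genes, were between 86.5 and 386 CPM, highest in library 12 (WT SH). Nothing in the labels says which animals shared a cage or were killed together, and the hour of collection is not given in the sources used here. The libraries of a group are taken as separate animals, which the labels do not state, so that p measures the spread between these libraries. The treatment field of all 24 libraries, SH included, names enrichment with the words 2 samples, and it does not say whether these were animals, pools or conditions. The 5 libraries among the 22 whose code carries a letter are all EE, so that these differ from SH in naming as well as housing. The other EE libraries, 2 of WT and 3 of KD, carry no letter.

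By the annotation of GENCODE M21 on GRCm38, Nr3c1 lies on chromosome 18 (39410545 to 39519421, minus strand) and Nr3c2 on chromosome 8 (76899442 to 77245012, plus strand). Fkbp5 lies on chromosome 17 (28399094 to 28517527, minus strand), Sgk1 on chromosome 10 (21882184 to 21999903, plus strand) and Tsc22d3 on chromosome X (140539528 to 140600659, minus strand). Zbtb16 lies on chromosome 9 (48654297 to 48836222, minus strand) and Hif3a on chromosome 7 (17031507 to 17062427, minus strand). Exons of Gm10649 overlap those of Nr3c2 on the opposite strand, and the counting did not use strand, so that reads of the 2 could not be told apart there. In WT SH, per kilobase of annotated exons, Nr3c2 had the highest level (30.0 ± 3.39 CPM per kb, SD, n = 6), followed by Nr3c1 (13.7 ± 0.587). Zbtb16 (10.95 ± 1.27), Tsc22d3 (10.3 ± 0.656) and Sgk1 (10.3 ± 0.613) did not differ beyond their spread. Fkbp5 was lower (5.19 ± 0.375) and Hif3a lowest (0.612 ± 0.108). In each of the other 3 groups Nr3c2 was also the highest and Hif3a the lowest per kilobase.

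Housing was compared first, over both genotypes. The 5 responsive genes had higher means and the 2 receptors lower means in EE, and none of the 7 was called. Calls were made by edgeR's quasi-likelihood test and needed a Benjamini-Hochberg adjusted p no higher than 0.05 and a change of at least 1.3-fold (0.38 on the log2 scale). Under the same rule 27 genes were called among all those tested (0.146%). At an unadjusted p under 0.05 all 7 members passed, against 16.1% of all genes (8.86% higher and 7.28% lower in EE), and DESeq2 called 1 member, Sgk1. Libraries 35A (WT EE) and 36A (KD EE), singled out here after their values were seen, were the 2 highest of the 22 for each of the 5 responsive genes. The study had left out 35A, though not 36A, for poor correlation within its group. Libraries 35A and 36A were together the 2 highest for 659 of the 18482 genes tested (3.57%). Among all 231 pairs of libraries, only the pair 1 and 5 was at the top for more genes (811, 4.39%). With 35A and 36A left out, 2 of the 7 members had an unadjusted p under 0.05, Sgk1 (higher) and Nr3c1 (lower), against 12.6% of the genes tested (7.7% higher and 4.91% lower), and 3 genes were called in all.

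**Figure D1:**
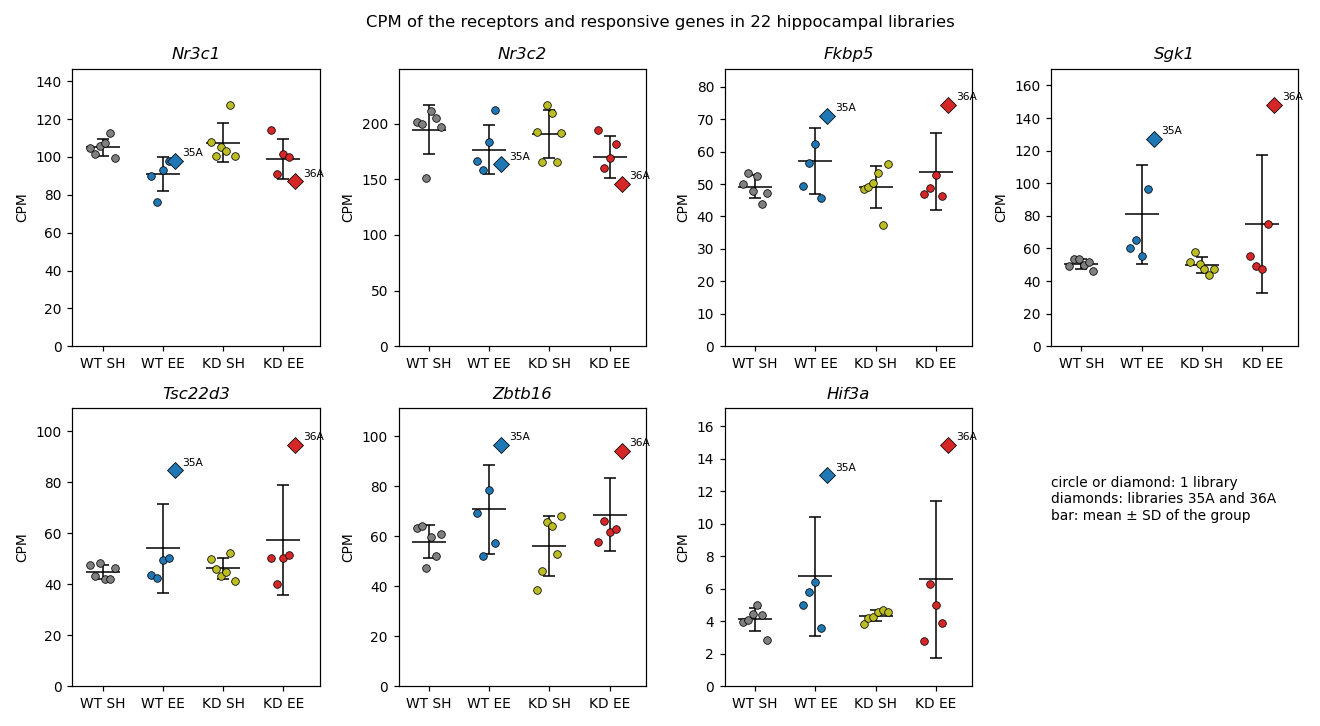
CPM of each of the 7 genes (vertical axis, from 0) in each of the 22 libraries, by group, with the mean and SD of the group as a bar. Libraries 35A and 36A, drawn as diamonds, lie above all others in the 5 responsive genes and do not in Nr3c1 and Nr3c2.

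Nr3c1, which encodes GR, was between 99.5 and 112 CPM in the 6 WT SH libraries, with a median of 105 CPM. In WT EE it was 90.1 CPM in library 16, 76.2 in 17, 93.0 in 31B, 98.0 in 33A and 98.0 in 35A. Each WT EE library was below each WT SH library, a pattern that 0.73% of all genes tested shared in this direction. In KD SH it was between 100 and 128 CPM (median 104), and in KD EE 114 CPM in library 7, 91.2 in 8, 102 in 9, 100 in 32A and 87.1 in 36A, so that the KD groups overlapped. No member was without overlap in KD, where 0.233% of all genes were so for higher and 0.314% for lower values in EE. The group means were 105 ± 4.51 CPM in WT SH (SD, n = 6), 91.1 ± 8.99 in WT EE (n = 5), 107 ± 10.2 in KD SH (n = 6) and 98.8 ± 10.4 in KD EE (n = 5). Over both genotypes EE differed from SH by -0.16 on the log2 scale (SE 0.051, adjusted p = 0.108 in edgeR). It was -0.21 (adjusted p = 0.414) in WT and -0.12 (adjusted p = 0.585) in KD. Without 35A and 36A the averaged value was -0.15 (adjusted p = 0.185). It is bulk tissue, in which fewer cells that express a gene and less RNA per cell cannot be told apart.

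Nr3c2, which encodes MR, was between 151 and 212 CPM in WT SH (median 201) and between 166 and 217 CPM in KD SH (median 192). Among WT EE libraries it was 166 CPM in library 16, 159 in 17, 183 in 31B, 212 in 33A and 163 in 35A. In KD EE it was 194 CPM in library 7, 161 in 8, 169 in 9, 182 in 32A and 146 in 36A, which was the lowest of the 22. EE and SH overlapped in both genotypes. Averaged over genotypes, the log2 fold change was -0.15 (SE 0.065, adjusted p = 0.248 in edgeR), and -0.11 without 35A and 36A (adjusted p = 0.538).

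The balance of MR to GR was described as the ratio of their counts within a library, which does not depend on the scaling of libraries. The mean ratio of Nr3c2 to Nr3c1 counts was 1.85 ± 0.217 in WT SH (SD, n = 6), 1.95 ± 0.196 in WT EE (n = 5), 1.79 ± 0.284 in KD SH (n = 6) and 1.72 ± 0.0624 in KD EE (n = 5). The lowest values were 1.30 in library 5 (KD SH) and 1.42 in library 12 (WT SH), and the highest was 2.16 in library 33A (WT EE). Library 12 had the highest summed thalamus markers of the 22 (386 CPM, WT SH median 111) and oligodendrocyte markers (6804 CPM). Library 5 had 164 CPM of thalamus markers (KD SH median 112) and the lowest summed CA1 markers (515 CPM). The part of tissue composition in these ratios was not tested. The ranges of the 4 groups overlapped, and the ratio was given no test. Library 35A had a ratio of 1.67 and 36A one of 1.67, both inside the range of the other libraries.

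Sgk1 encodes a kinase that aldosterone and glucocorticoids induce and that acts on ion channels and transporters. It had the lowest adjusted p of the 7 genes. In WT SH it was between 46.0 and 53.8 CPM (median 50.7), and in KD SH between 43.5 and 58.1 CPM (median 48.9). In WT EE it was 60.2 CPM in library 16, 65.5 in 17, 55.4 in 31B, 96.4 in 33A and 127 in 35A. Each of these 5 was above each WT SH library, a pattern that 0.46% of all genes tested shared in this direction. Among KD EE libraries it was 55.3 CPM in library 7, 49.2 in 8, 47.5 in 9, 75.1 in 32A and 148 in 36A. Of these 5, only 32A and 36A were above the KD SH libraries, and the KD groups overlapped. With both genotypes pooled, EE and SH overlapped for each of the 7 members, and 0.00541% of all genes were without overlap and higher in EE and 0.0162% lower. The 4 highest of the 22 libraries (36A, 35A, 33A and 32A) all carry a letter in their code.

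The log2 fold change of Sgk1 over both genotypes was 0.64 (SE 0.16, 95% CI 0.32 to 0.97), a fold of 1.56, with an adjusted p of 0.0598 in edgeR. It was 0.68 (SE 0.22, adjusted p = 0.403) in WT and 0.61 (SE 0.22, adjusted p = 0.467) in KD, and 0% of all genes were called within either genotype. At an unadjusted p under 0.05, 3 of the 7 members passed in WT (Sgk1, Nr3c1 and Hif3a), against 8.65% of all genes, and 1 in KD (Sgk1), against 9.63%. Without 35A and 36A these were 2 in WT (Sgk1 and Nr3c1), against 9.6% of all genes, and 0 in KD, against 6.73%. DESeq2 called none of the 7 within a genotype. Over both genotypes the adjusted p of Sgk1 lay close to the threshold and crossed it with the choice of libraries. It was 0.0305 without library 2, 0.0436 without 7, 0.0351 without 9, 0.0461 without 12 and 0.0263 without 31B. Without 35A it was 0.0629, with a log2 fold change of 0.53, and without 36A it was 0.14, with 0.44. Without both, Sgk1 differed by 0.33 on the log2 scale (SE 0.090, adjusted p = 0.097), and without all lettered libraries 0.17 (adjusted p = 0.203), which left 2 WT EE and 3 KD EE libraries.

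The promoter windows of RefSeq, on GRCm38.p6, were searched for the letters of the palindromic glucocorticoid response element, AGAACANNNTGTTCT, in 32851 windows of 300 bases, from 250 before to 50 after a start site. Since the motif is its own reverse complement but for the spacer, each match counts for both strands. Only 3 windows held it (0.00913%), those of Sgk1, Acnat2 and Gm35041. Of the 6 windows of Sgk1, the one that held it starts transcription inside the gene, and the 250 bases before that start are shown, with the 15 bases of the element in capitals, 189 to 175 bases before the start. For contrast the 250 bases before a start of Tsc22d3 are shown, which hold only the 6-base site TGTTCT, in capitals, 185 to 180 bases before the start. Either 6-base site, TGTTCT or its reverse complement AGAACA, stood in 19.0% of all windows, so that its presence is common. The windows are chr10:21993640-21993889 on the plus strand for Sgk1 and chrX:140600523-140600772 on the minus strand for Tsc22d3, each written 5′ to 3′ on the strand of the gene.
Sgk1: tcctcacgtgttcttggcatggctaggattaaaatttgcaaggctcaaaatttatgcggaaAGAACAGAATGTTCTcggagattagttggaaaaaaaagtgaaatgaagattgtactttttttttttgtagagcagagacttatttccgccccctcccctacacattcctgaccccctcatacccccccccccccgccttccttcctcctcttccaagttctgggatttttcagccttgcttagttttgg
Tsc22d3: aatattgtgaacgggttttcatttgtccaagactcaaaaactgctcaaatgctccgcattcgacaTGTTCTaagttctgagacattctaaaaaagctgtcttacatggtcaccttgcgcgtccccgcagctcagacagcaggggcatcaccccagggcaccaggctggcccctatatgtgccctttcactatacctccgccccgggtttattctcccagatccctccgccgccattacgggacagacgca

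The single windows of Nr3c2, Fkbp5 and Hif3a held neither the element nor a 6-base site, which says only that these letters are not in those 300 bases. For Nr3c1 and Zbtb16 no window was searched. A match of letters is a description of the sequence and says nothing of binding.

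Tsc22d3 encodes GILZ, a leucine zipper protein that mediates anti-inflammatory actions of glucocorticoids. It was between 41.9 and 48.3 CPM in WT SH (median 44.7) and between 41.4 and 52.3 CPM in KD SH (median 45.4). Among WT EE libraries it was 43.6 CPM in library 16, 42.3 in 17, 49.3 in 31B, 50.2 in 33A and 84.6 in 35A. In KD EE it was 50.2 CPM in library 7, 40.0 in 8, 50.1 in 9, 51.6 in 32A and 94.7 in 36A. Apart from 35A and 36A, the EE libraries lay between 40.0 and 51.6 CPM, within or close to the SH range. The log2 fold change over both genotypes was 0.29 (SE 0.12, adjusted p = 0.214 in edgeR), and 0.05 without 35A and 36A (SE 0.055, adjusted p = 0.737).

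Fkbp5 encodes the cochaperone FKBP51, which is induced by GR and lowers the affinity of GR for its ligand. It was between 44.0 and 53.4 CPM in WT SH (median 48.9) and between 37.3 and 56.2 CPM in KD SH (median 49.7). In WT EE it was 49.3 CPM in library 16, 56.6 in 17, 62.3 in 31B, 45.8 in 33A and 71.1 in 35A. Among KD EE libraries it was 46.9 CPM in library 7, 48.9 in 8, 52.7 in 9, 46.2 in 32A and 74.4 in 36A. Library 33A, with the third highest Sgk1, was among the low libraries for Fkbp5. Over both genotypes the log2 fold change was 0.17 (SE 0.084, adjusted p = 0.308 in edgeR) and 0.06 without 35A and 36A (SE 0.067, adjusted p = 0.78).

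Zbtb16 encodes PLZF, a zinc finger transcriptional repressor. It was between 47.2 and 64.0 CPM in WT SH (median 60.2), and between 38.4 and 68.2 CPM in KD SH (median 58.5), the widest SH range of the responsive genes. Among WT EE libraries it was 69.4 CPM in library 16, 52.1 in 17, 78.5 in 31B, 57.3 in 33A and 96.6 in 35A. In KD EE it was 57.9 CPM in library 7, 65.9 in 8, 61.8 in 9, 63.0 in 32A and 94.1 in 36A. The log2 fold change over both genotypes was 0.30 (SE 0.11, adjusted p = 0.169 in edgeR) and 0.16 without 35A and 36A (SE 0.094, adjusted p = 0.514). With the mean log2 CPM of the oligodendrocyte markers as a score in the fit it was 0.01 (adjusted p = 0.987).

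Hif3a encodes a member of the hypoxia-inducible factor family that can restrain the other members. It was the least abundant of the 7 genes. It was between 2.84 and 4.9996 CPM in WT SH (median 4.23) and between 3.86 and 4.72 CPM in KD SH (median 4.403). In WT EE it was 4.99 CPM in library 16, 5.81 in 17, 6.42 in 31B, 3.58 in 33A and 12.999 in 35A. Among KD EE libraries it was 2.78 CPM in library 7, 6.31 in 8, 5.01 in 9, 3.88 in 32A and 14.9 in 36A, so that 35A and 36A were above all others. Of the other 8 EE libraries, 4 were above the range of the 12 SH libraries, 3 inside it and 1 (library 7) below it. Over both genotypes the log2 fold change was 0.68 (SE 0.22, adjusted p = 0.117 in edgeR) and 0.20 without 35A and 36A (SE 0.13, adjusted p = 0.552).

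**Figure D2:**
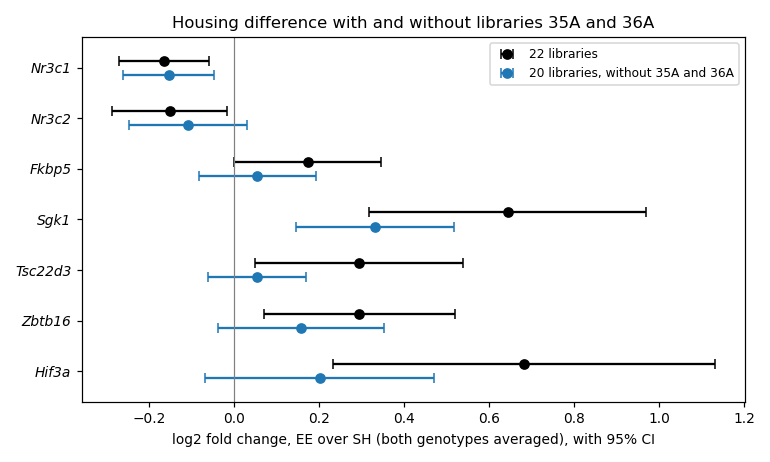
Log2 fold change of EE over SH with both genotypes averaged (horizontal axis) for each gene, with 95% CI, from the 22 libraries (black) and from the 20 without 35A and 36A (blue). Without them the interval of each responsive gene but Sgk1 spans 0, and Sgk1 falls from 0.64 to 0.33, while Nr3c1 moves from -0.16 to -0.15.

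Whether the KD mice differed from WT mice in these genes was compared within each housing and over both. None of the 7 was called in WT against KD over both housings, in SH or in EE, nor for the interaction of genotype and housing, and 0% of all genes were called in any of these comparisons by edgeR. None of the 7 had an unadjusted p under 0.05 in them either, against 6.06% of all genes over both housings, 5.76% in SH, 2.61% in EE and 2.04% for the interaction, and DESeq2 called none. Without 35A and 36A, 1 member passed at that p in EE, against 3.75% of all genes. This was Nr3c1, at -0.18 for WT over KD on the log2 scale (SE 0.080, adjusted p = 0.99935 in edgeR). None passed over both housings (5.67% of all genes), in SH (6.23%) or for the interaction (3.54%) without these libraries. Over both housings the log2 fold changes of WT over KD were between -0.07 (Nr3c1) and 0.06 (Sgk1), with 95% CIs that reached at most -0.48 and 0.42 (Hif3a). For the interaction the log2 differences were between -0.08 (Nr3c1) and 0.09 (Hif3a). The widest 95% CI was that of Hif3a, from -0.81 to 0.99, and that of Nr3c1 was -0.29 to 0.13. Differences inside the interval of a gene remain compatible with these libraries. These comparisons share their libraries with the housing comparisons.

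Other genes that glucocorticoids are known to induce were read as a list of 20, all of which were tested. None was called in EE against SH over both genotypes. Of the 20, 11 had an unadjusted p under 0.05 and were higher in EE and none was lower. Of all genes, 8.86% were higher and 7.28% lower at that p. The median log2 fold change was 0.25, against 0.005 over all genes tested. Without 35A and 36A, 5 of the 19 that passed the filter were higher at that p, against 7.7% of all genes. None was lower, against 4.91%, and the median was 0.10, against 0.009 over all genes. Libraries 35A and 36A were the 2 highest of the 22 for 13 of the 20 genes (65.0%), against 3.57% of all genes. Among these, Plin4, which coats lipid droplets, was 10.7 CPM in 35A and 18.7 CPM in 36A, against 1.92 to 4.19 CPM in the 12 SH libraries. The cell cycle inhibitor Cdkn1a was 14.4 and 20.03 CPM in these libraries, against 5.38 to 6.54 CPM in SH. Of the 10 EE libraries, 8 were above every SH library and 1 was below all of them. Per1, a clock gene with a glucocorticoid response element, was 125 and 116 CPM, against 59.5 to 92.7 in SH. Nfkbia, the inhibitor of NF-kappaB, was 23.3 and 23.9 CPM, against 11.9 to 16.3. Other genes of the list did not share this order. Dusp1, a phosphatase that dampens MAP kinases, was 19.2 CPM in 35A and 19.1 in 36A, inside its SH range of 15.2 to 29.3, and the metallothionein Mt1 was 122 and 171 CPM, inside 112 to 181.

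**Figure D3:**
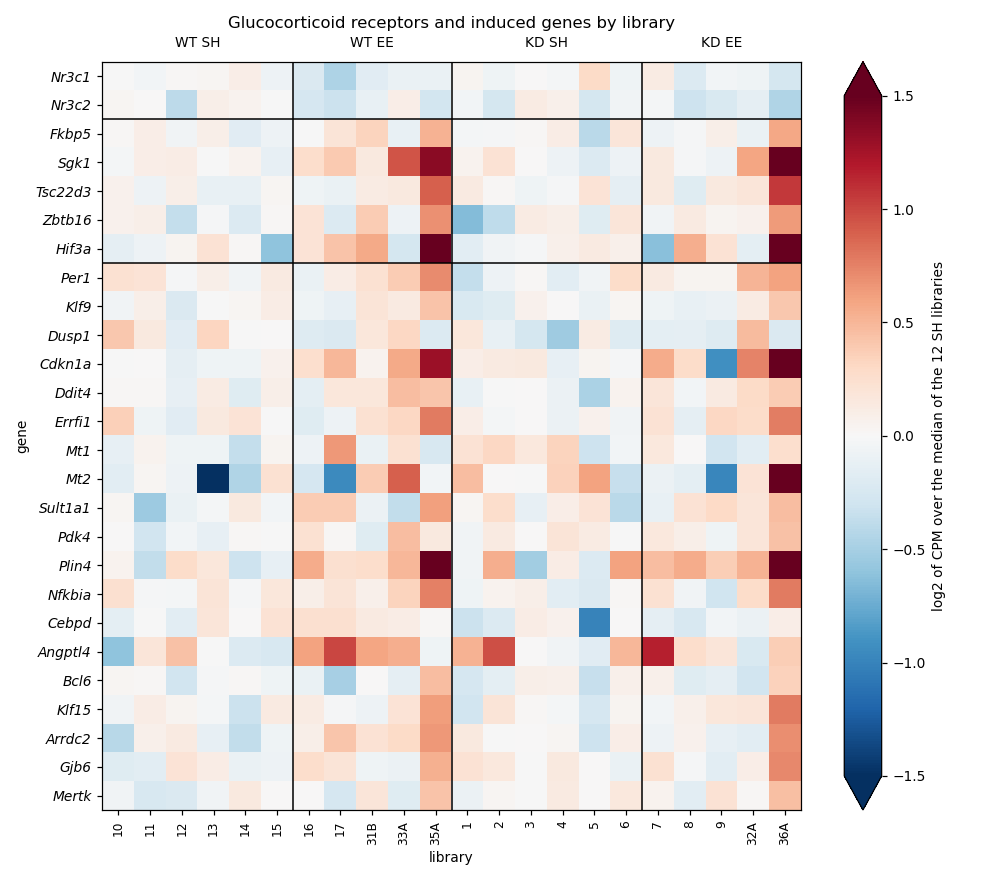
Log2 of CPM over the median of the 12 SH libraries (colour, limited to 1.5 either way) for the receptors, the responsive genes and 19 of the 20 other induced genes (rows, Lcn2 left out for SH libraries at 0), in the 22 libraries by group (columns). The columns of 35A and 36A are red in all 5 responsive genes and in most of the rows below, and the SH columns stay pale in the responsive genes except for single cells of Hif3a, Fkbp5 and Zbtb16.

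Genes that set how the receptors fold, act and find their ligand were described by lists as well. Of 12 chaperones and cochaperones of the receptors, 4 were higher and 1 lower in EE at an unadjusted p under 0.05. The shares of all genes at that p were 8.86% higher and 7.28% lower. None of the 12 was called, and the median log2 fold change was 0.06. Libraries 35A and 36A were the 2 highest for 5 of them, against 3.57% of all genes. Fkbp4, the cochaperone that favours ligand binding, was 158 and 169 CPM there, against 95.8 to 130 in SH. Dnajb1, a heat shock protein of the HSP40 class, was 65.9 and 69.8 CPM, against 43.3 to 51.1 in SH. Of 12 coregulators, 1 was higher at that p, close to the share of all genes, and none was lower (median 0.05). Library 35A had a summed level of 1935 CPM, against 1324 to 1738 CPM in the libraries other than 35A and 36A. Of 11 paralogs of the members, 4 were higher and 1 lower at that p (median 0.06), against the same shares, and none was called.

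Of the steroid metabolism and transport genes, 7 of 9 were tested and none was called. Hsd11b1 encodes the enzyme that regenerates active glucocorticoid inside cells. Its adjusted p was 0.0406 in edgeR, and 49 of all genes tested had an adjusted p no higher than 0.05. Its change of -0.27 on the log2 scale (SE 0.053) was under the fold threshold. It was between 23.0 and 30.4 CPM in the 12 SH libraries, and 7 of the 10 EE libraries were below all of them. Among WT EE libraries it was 21.2 CPM in library 16, 22.3 in 17, 23.9 in 31B, 20.2 in 33A and 19.4 in 35A, the lowest of the 22. All 5 were below the WT SH libraries, a pattern that 0.73% of all genes tested shared in this direction. H6pd, which supplies the cofactor of that enzyme, differed by 0.31 on the log2 scale (SE 0.079, adjusted p = 0.0655). Of the CRH system, 6 of 9 genes were tested and none was called. At an unadjusted p under 0.05, 1 was higher, the receptor Crhr2 (log2 fold change 0.85, adjusted p = 0.0689 in edgeR), against 8.86% of all genes. Crhr2 was 1.68 CPM in library 35A, where the choroid plexus markers were near their lowest, and 5.36 in 36A, where they were highest, and the part of choroid plexus in its difference was not tested.

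The markers of other tissues were set beside libraries 35A and 36A. The choroid plexus sum was 61.0 CPM in 35A and 5838 CPM in 36A, so that these libraries lay near the opposite ends of its range of 40.2 to 5838 CPM over the 22. All 12 choroid plexus markers were higher in EE at an unadjusted p under 0.05 (median log2 fold change 2.34), against 8.86% of all genes, and none was called. With their mean log2 CPM as a score in the fit the log2 fold change of Sgk1 was 0.55 (adjusted p = 0.142), that of Zbtb16 0.41 (adjusted p = 0.115) and that of Nr3c1 -0.11 (adjusted p = 0.325). In the same fit it was 0.22 for Fkbp5, 0.79 for Hif3a and -0.10 for Nr3c2, none of them called. Tsc22d3 lay between -0.021 and 0.35 under every alternative run, this fit included. Of 8 oligodendrocyte markers, 5 were lower in EE at that p, against 7.28% of all genes, and none was called (median -0.15). Their sum was 4773 CPM in 35A and 5245 in 36A, inside the range of the others (4590 to 6804). With their score in the fit the log2 fold change of Fkbp5 went from 0.17 to 0.041 (adjusted p = 0.918), that of Zbtb16 from 0.30 to 0.01 and that of Hif3a from 0.68 to 0.34 (adjusted p = 0.673). Sgk1 was at 0.52 (adjusted p = 0.234), Tsc22d3 at 0.19 (adjusted p = 0.68), Nr3c1 at -0.16 (adjusted p = 0.271) and Nr3c2 at -0.22 (adjusted p = 0.177). The endothelial sum over 7 markers was 241 CPM in 35A and 286 CPM in 36A, against 206 to 271 in the others, and the blood sum over 5 genes was 29.5 CPM in 35A, the lowest of the 22, and 55.2 in 36A. Immediate early genes, summed over 9, were 734 and 689 CPM, within the range of the others (389 to 852), but 2 single genes stood apart. Fosb, at 25.0 CPM in 35A and 23.1 CPM in 36A, had these as its 2 highest libraries, against 8.30 to 15.9 CPM in SH. Npas4, at 17.5 CPM in 35A and 15.1 CPM in 36A, had them as its 2 lowest, below every SH library. The clock genes, summed over 8, were 781 and 746 CPM, also within the range of the others (616 to 782), but single clock genes stood apart. Per2 was 78.9 CPM in 35A and 67.1 CPM in 36A, the 2 highest of the 22, against 28.5 to 41.4 CPM in SH. Dbp was 23.0 CPM in 35A and 19.7 CPM in 36A, the lowest of the 22, against 21.3 to 35.5 CPM in SH. The fragments outside single genes made 18.6% of 35A, the highest of the 22, and 15.1% of 36A, against 14.1% to 16.1% in the others, and mitochondrial genes made 4.36% and 4.24% of the counts, inside the range of the others (3.73% to 7.17%). The part of each of these in the levels of the responsive genes was not tested.

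Whether the 7 genes moved together from library to library was tested on log2 CPM with the mean of each group removed, over 22 libraries and 21 pairs, by permutation of libraries within groups (100000 draws, two-sided, Benjamini-Hochberg over the 21 pairs). For 4 pairs, all of responsive genes, the adjusted p of Pearson's r was no higher than 0.05, and for none did Spearman's rho. Sgk1 and Tsc22d3 had the highest r (0.83, adjusted permutation p = 0.0466, and rho 0.62, adjusted permutation p = 0.111). Leaving out 36A and 35A, the libraries farthest from the median of Sgk1, r was 0.48. This value, and the like values of the next pairs, kept the group means of all 22 libraries, 35A and 36A included. Fkbp5 and Hif3a had an r of 0.74 (adjusted permutation p = 0.033, and rho 0.53, adjusted permutation p = 0.135), which was 0.76 without the 2 libraries farthest from the median of Fkbp5 (36A and 5). Fkbp5 and Zbtb16 had an r of 0.66 (adjusted permutation p = 0.0466, and rho 0.67, adjusted permutation p = 0.0666), which was 0.64 without the same libraries. Zbtb16 and Hif3a had an r of 0.61 (adjusted permutation p = 0.0466, and rho 0.47, adjusted permutation p = 0.146), which was 0.56 without libraries 1 and 35A. Over the 10 pairs of responsive genes r was between 0.37 and 0.83. Libraries 35A and 36A were singled out as the highest in these 5 genes, so that r without them is given as a description and is no test of the relation. Without them r was between -0.48 and 0.40 with the group means taken anew, and no pair passed. For the 4 pairs above r was then 0.24 (Sgk1 and Tsc22d3), 0.36 (Fkbp5 and Hif3a), 0.40 (Fkbp5 and Zbtb16) and 0.22 (Zbtb16 and Hif3a). Fkbp5 and Zbtb16 then had a rho of 0.53 (permutation p = 0.0439 unadjusted and 0.249 adjusted). Over the 10 pairs of a receptor with a responsive gene r was between -0.51 and 0.11, and none passed.

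**Figure D4:**
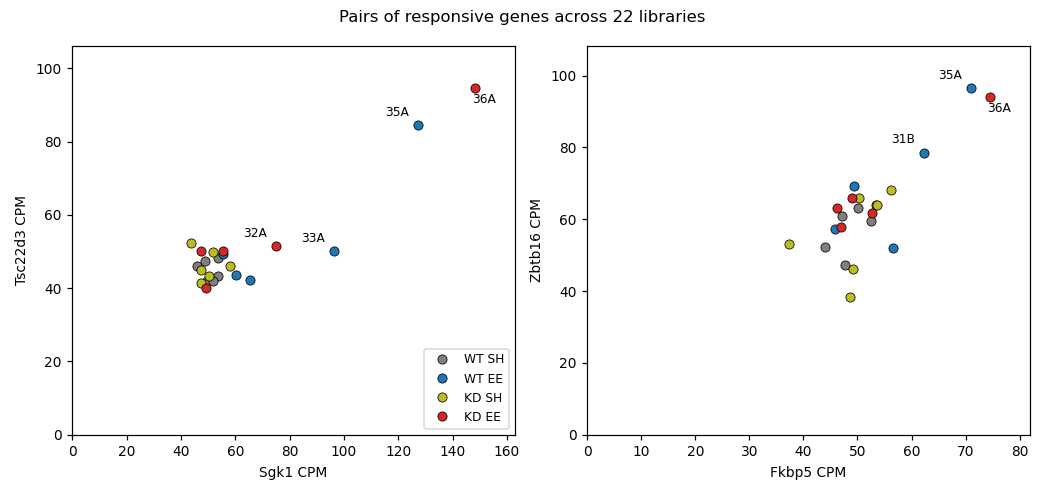
CPM of Sgk1 against Tsc22d3 (left) and of Fkbp5 against Zbtb16 (right), 1 point per library, coloured by group. Libraries 35A and 36A stand at the upper right of both panels, while 33A and 32A are raised in Sgk1 (96.4 and 75.1 CPM) and not in Tsc22d3 (50.2 and 51.6 CPM).

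The genes whose log2 CPM was most like that of each member over the 22 libraries were taken by Pearson's r, as a description. For Sgk1 they were Cdkn1a (r = 0.88), Nfkbia (0.87) and Adipor2 (0.85), and for Tsc22d3 they were Adipor2 (0.91), P4ha1 (0.91) and Gm42644 (0.89). For all 6 of these entries 35A and 36A were the 2 highest libraries, and without these libraries r was between 0.40 (P4ha1) and 0.65 (Cdkn1a). The genes were picked by r over libraries that include 35A and 36A, so that their order in these 2 follows in part from the choice. For Fkbp5 they were Spns2 (0.92), Arhgap39 (0.90) and Rasd1 (0.89), for Zbtb16 they were 5830417I10Rik (0.92), Zmynd8 (0.91) and Adar (0.91), and for Hif3a they were Cables1 (0.82), Map3k6 (0.81) and Dnajb1 (0.80). Without 35A and 36A the r of the Hif3a genes was 0.33, 0.41 and 0.20 in that order. That of the Fkbp5 genes was 0.81, 0.84 and 0.74, and that of the Zbtb16 genes was 0.87, 0.83 and 0.90. The annotation gives 5830417I10Rik as an unprocessed pseudogene, whose reads may be shared with a related gene. The genes most like the receptors were others. For Nr3c1 they were Stau2 (0.91), Qk (0.87) and Mier1 (0.86), and for Nr3c2 they were Fgf13 (0.87), Mctp1 (0.86) and Wasf1 (0.85), and none of these 6 had 35A and 36A as its 2 highest libraries.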

How the data were processed

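RNA of mouse hippocampus was sequenced from poly-A libraries. Reads were adapter-trimmed by the authors (Skewer), mapped to GRCm38 (STAR 2.5) and assigned to genes where uniquely aligned (HTSeq, unstranded). The deposited unit is the raw count per gene symbol and library. A table of values scaled by the authors was not used. The 5 summary lines of each file stayed out of library sizes and tests. Those reads, in no gene or ambiguous between genes, made between 14.1% and 18.6% of the counted fragments in the 22 libraries.

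In R 4.3.3, edgeR 4.0.16 was run on the counts of 22 libraries with filterByExpr, TMM scaling, a quasi-likelihood fit with a mean for each of 4 groups, and Benjamini-Hochberg adjustment over all 18482 genes tested. Calls needed an adjusted p no higher than 0.05 with a log2 fold change of at least 0.38 in either direction. CPM were scaled by the same TMM factors, and log2 CPM had a prior count of 2. The fit was also run on simulated counts with known changes. In those no libraries stood apart together, so that the run says nothing of 35A and 36A. DESeq2 1.42.0 was an alternative, and the 17 libraries of the study, which left out 2, 9, 12, 31B and 35A for poor correlation within their groups, were another. Correlations and figures used Python 3.11.15, scipy 1.17.1 and matplotlib 3.10.9. The named genes were the 7 members, the genes of fixed lists and the 3 genes with the highest r with each member. The members, picked by symbol and not by level, and the lists were chosen with earlier results of these data known. Libraries 35A and 36A were singled out after their values were seen.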

Additional observations from a re-analysis of the deposited data

Results flagged for a closer look

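Of 32 sets of values (the 7 genes and the ratio of the receptors, in 4 groups), 8 had a library whose gap to the others was above Dixon's 95% limit. Chance flags about 1 in 20. The sets are not independent, since they share libraries and the ratio is made from the counts of both receptors, so that the 8 are not separate departures. Library 36A stood apart within KD EE for Fkbp5 (74.4 CPM), Sgk1 (148 CPM), Tsc22d3 (94.7 CPM) and Zbtb16 (94.1 CPM), and library 35A within WT EE for Tsc22d3 (84.6 CPM). Library 5 stood apart within KD SH for Nr3c1 (128 CPM), and library 12 within WT SH for Nr3c2 (151 CPM) and for the ratio of Nr3c2 to Nr3c1 (1.42). Library 5 had the lowest CA1 sum (515 CPM) and library 12 the highest thalamus sum (386 CPM) of the 22. The part of tissue composition in these values was not tested. In library 33B, an enriched WT library that failed quality control and entered no comparison, Sgk1 was at 76.6 CPM and Zbtb16 at 75.7 CPM, scaled over all 24 libraries, above every standard-housed library. Tsc22d3 in 33B was at 49.9 CPM and Fkbp5 at 41.8 CPM, inside their SH ranges, and Hif3a was at 2.76 CPM, against a lowest SH value of 2.84 CPM in the scaling of the 22 libraries.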

How the results depend on the processing

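No paired analysis was possible because the library codes are not shared between groups. The count of members called for EE against SH over both genotypes was 0, and it became 1 (Sgk1) with the study's 17 libraries, with all 24, in DESeq2 and with no filter on low counts, and was 0 to 1 over the libraries left out in turn. The genes called in all by these 4 were 720, 90, 214 and 209, against 27, and between 2 (without 36A, for example) and 287 (without 31B) when 1 library was left out. The adjusted p of Sgk1 was 0.00744, 0.0416, 0.0324 and 0.0205 in that order, and the cause was not tested. The other 6 counts of members called stayed at 0 under every alternative run. Tsc22d3 turned to a log2 fold change of -0.021 over both genotypes and -0.056 in WT without the lettered libraries. Zbtb16 turned to -0.0088 in WT with the 17 libraries. With the oligodendrocyte score, Fkbp5 turned to -0.022 and Zbtb16 to -0.025 in KD. Fkbp5 in KD was -0.016 without 35A and 36A, chosen after seeing the data, and between -0.016 (without 36A) and 0.18 with KD libraries left out. None of these values passed the test. Over both genotypes Nr3c1 lay between -0.20 and -0.11 and Sgk1 between 0.17 and 0.71 under every alternative run. The 4 correlated pairs became 0 without 35A and 36A, 1 with the 17 libraries, 10 with all 24 and 0 without the lettered libraries. Library 34B held 0 counts of all 5 responsive genes, and its 16442 counts on genes limit the reading of all 24.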
